A study of Mus musculus with 6 samples.

Results

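The genes described here encode the enzymes that make and break down the polyamines and the proteins that hold the first of those enzymes in check. They were taken by symbol from the deposited gene table, where all 10 were found among 24054 genes: Odc1, Amd1, Amd2, Srm and Sms for synthesis, Smox and Sat1 for breakdown, and Oaz1, Oaz2 and Azin1 for control. Amd1 and Amd2 have nearly the same sequence and were added together, which left 9 rows, and all 9 passed the filter on low counts, as did 12660 of the 24053 rows in all. Expression was measured by RNA-seq in 6 gastrocnemius samples of male C57BL/6 mice. 3 came from MI4KO mice, in which Myl1-cre, a recombinase expressed in skeletal muscle, deletes a floxed Irf4 gene. The other 3 came from MI4OE mice, in which the same Myl1-cre removes a stop cassette and switches on an Irf4 transgene at Rosa26. All 6 samples therefore carried Myl1-cre, and the floxed and transgenic alleles differed between the groups. Gastrocnemius from floxed or wild-type mice was not analysed here, so a difference between MI4KO and MI4OE cannot be assigned to the loss or to the gain of IRF4. GEO's labels give a high fat diet for both groups while the study describes mice on chow, so the diet is in doubt, and the labels give no age.

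Polyamines (putrescine, spermidine and spermine) are small positively charged molecules that bind nucleic acids and are needed for growth and translation. Ornithine decarboxylase (Odc1) makes putrescine from ornithine. S-adenosylmethionine decarboxylase (Amd1, Amd2) supplies the aminopropyl groups that spermidine synthase (Srm) and spermine synthase (Sms) then add in turn. Spermine oxidase (Smox) turns spermine back into spermidine, and spermidine/spermine acetyltransferase (Sat1) marks polyamines for oxidation and export. Antizymes (Oaz1, Oaz2) bind ornithine decarboxylase and send it to the proteasome, and the antizyme inhibitor (Azin1) takes antizyme away from it. Much of this control acts on translation and on protein turnover, and transcript levels do not measure it.

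The Amd1 and Amd2 transcripts are shown first, because they decide how their reads can be counted. In the GENCODE annotation of GRCm38, Amd1 lies on the minus strand of chromosome 10 from 40287458 to 40302186 in 8 exons, with a transcript of 3204 bases. Amd2 lies on the same strand from 35708675 to 35711892 in 1 exon, with a transcript of 3218 bases. The deposited transcripts, to which the reads were assigned, had 3206 bases for Amd1 and 3197 for Amd2. A global alignment of the GENCODE transcripts gave 3190 identical bases and 11 base substitutions, with gaps left out of the count. Of the substitutions, 10 lay in untranslated sequence and 1 in the coding sequence. That one is G1124C, with the Amd1 base first, the position counted from 1 at the 5′ end of the Amd1 transcript, and the Amd2 base last. The 61 coding-strand bases around it are given here 5′ to 3′ with the differing base in capitals, from position 1094 to 1154 in Amd1 and from 1099 to 1159 in Amd2:
Amd1: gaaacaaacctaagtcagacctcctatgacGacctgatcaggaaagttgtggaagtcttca
Amd2: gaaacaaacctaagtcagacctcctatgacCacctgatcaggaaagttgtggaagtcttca
Of the 3155 stretches of 50 bases in the Amd1 transcript, the length of the reads, 2715 (86.1%) also occur in Amd2. Most reads can therefore not be placed in one gene rather than the other. Almost all of them were assigned to Amd2, and the values below are for both genes together.

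The sequences before the gene starts are shown for Odc1, Amd1, Amd2 and Smox. Smox, Odc1 and the summed Amd1/Amd2 had the largest fitted differences between the groups, and Amd1 alone was not compared. Windows were found for 8 of the 10 members in RefSeq's GRCm38.p6 set. The 150 bases before the start that each RefSeq window uses are printed 5′ to 3′ on the gene's strand with CG dinucleotides in capitals. They are at chr12:17544723-17544872 on the plus strand for Odc1, chr10:40302189-40302338 on the minus strand for Amd1, chr10:35711892-35712041 on the minus strand for Amd2 and chr2:131491712-131491861 on the plus strand for Smox:
Odc1: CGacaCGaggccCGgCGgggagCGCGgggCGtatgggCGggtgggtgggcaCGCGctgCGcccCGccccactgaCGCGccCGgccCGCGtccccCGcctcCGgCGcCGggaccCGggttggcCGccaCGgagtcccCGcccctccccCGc
Amd1: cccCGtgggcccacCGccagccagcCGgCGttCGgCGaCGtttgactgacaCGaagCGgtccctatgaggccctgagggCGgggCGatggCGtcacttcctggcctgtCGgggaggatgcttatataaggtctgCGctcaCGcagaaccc
Amd2: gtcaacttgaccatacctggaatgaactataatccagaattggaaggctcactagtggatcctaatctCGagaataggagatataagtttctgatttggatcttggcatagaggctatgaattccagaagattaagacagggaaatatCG
Smox: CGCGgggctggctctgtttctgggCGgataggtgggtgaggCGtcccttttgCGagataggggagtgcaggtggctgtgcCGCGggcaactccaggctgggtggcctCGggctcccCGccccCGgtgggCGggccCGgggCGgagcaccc
For Odc1 and Smox this start lies downstream of the first base of the gene in RefSeq's gene table (17544808 and 131491858), so the 3′ end of the Odc1 stretch and the last few bases of the Smox stretch fall within the gene. Odc1 had 26 CG dinucleotides in this stretch, Amd1 had 15 and Smox had 13, against a median of 4 over 32851 windows. Amd2, the gene without introns, had 2, and 40.6% of all windows had 2 or fewer. A search of the full 300-base windows, from 250 bases before to 50 after the start and on both strands, found no member window with GAAA followed after any 2 bases by GAAA, a motif known for interferon regulatory factors, which 3.44% of all windows held. CACGTG, an E-box, was found in 1 of the 9 member windows, that of an upstream start of Sms, and in 7.15% of all windows. AGAACA, a half-site of some steroid hormone receptors, was found in the windows of Oaz2 and Sat1 and in 19.0% of all windows. A match here describes letters only, and binding was not measured in these data. The build used for the deposited table is not given in the sources used here, so all positions come from the annotations named.

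The libraries held 18828605 to 29239585 expected counts. Irf4 checked the labels, with 6, 0 and 2 counts in MI4KO and 2864, 10557 and 5911 counts in MI4OE. In whole-muscle RNA, fewer cells of a type and less RNA per cell cannot be told apart. The muscle fibre transcripts Acta1 and Ckm and the fast myosin Myh4 were abundant in every library, with Ckm at 22472 to 44001 CPM. 3 libraries stood apart from the rest of their groups in the levels of marker lists. MI4OE replicate 1 had a summed level of 6265 CPM (counts scaled to library size with TMM factors) over 7 slow-fibre genes, against 35.4 and 565 in the other MI4OE libraries and 23.5 to 110 in MI4KO, and its Myh4 level of 39864 CPM was below the 79758 to 110581 CPM of the other 5. MI4KO replicate 1 had a summed level of 2917 CPM over 11 glucocorticoid and fasting response genes, against 1029 and 1436 in the other MI4KO libraries and 1065 to 1178 in MI4OE. MI4KO replicate 3 had a summed level of 568 CPM over 6 adipocyte genes, against 56.2 and 134 in the other MI4KO libraries, and of 44.5 CPM over 4 hepatocyte genes, against 1.53 and 3.57. Without MI4KO replicate 3 the log2 differences of Smox, Odc1 and Azin1 between MI4OE and MI4KO were -1.42, -1.10 and -0.68, and all 3 were still lower by at least 1.5-fold with an unadjusted p under 0.05. MI4KO replicate 1 and MI4OE replicate 1 were the highest and the lowest library for most members, and member results that move with them are given below with and without them.

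In TPM, a scale that allows for transcript length, Amd1/Amd2 had the highest mean level of the members over the 6 libraries, 804 TPM, which ranked 139 among 24053 rows. Smox followed at 383 TPM, then Oaz1 at 273, Odc1 at 188, Oaz2 at 178, Sms at 88.0, Srm at 11.0, Sat1 at 9.45 and Azin1 at 7.12 TPM. Gastrocnemius thus held far more transcript for the decarboxylase that feeds the aminopropyl steps than for spermidine synthase, and far more for spermine oxidase than for the acetyltransferase. Amd1/Amd2 was above Smox in 6 of 6 libraries, Oaz2 above Sms in 6 and Sms above Srm in 6. The order of other neighbours differed between the groups. Odc1 was above Oaz2 in 3 of 3 MI4KO libraries and in 0 of 3 MI4OE libraries, and Smox was above Oaz1 in 3 of 3 MI4KO libraries and in 1 of 3 MI4OE libraries. Oaz1 was above Odc1, Srm above Sat1 and Sat1 above Azin1 in 5 of 6 libraries each.

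Comparing MI4OE with MI4KO asks how the polyamine genes differ between muscle with forced and with deleted IRF4. 7 of the 9 members were lower in MI4OE and 2 were higher. Smox, Odc1 and Azin1 were lower by 1.5-fold or more at an unadjusted p under 0.05 in the fit made here. These thresholds are the study's criterion, and no member was higher by it. None of the 9 passed at an adjusted p under 0.05 (edgeR's quasi-likelihood test, Benjamini-Hochberg), nor in the DESeq2 and edgeR exact tests, and 3 had an unadjusted p under 0.05, as did 7.58% of all rows. The median log2 difference of the members was -0.32, where 50% of all genes tested were lower in MI4OE. Leaving out MI4OE replicate 1 gave a median of -0.18, leaving out MI4OE replicate 2 gave -0.57, and leaving out MI4OE replicate 1 with MI4KO replicate 1 gave -0.12. Over all 12660 rows, 2.28% met the study's criterion as lower, 4.36% met it as higher, and 0.0237% (3 rows) had an adjusted p under 0.05. The study's own calls at these thresholds had the reverse balance, with more genes lower than higher in MI4OE. The balance of higher and lower rows at the criterion rested on single libraries, with 552 higher and 289 lower using all of them, 299 and 329 when MI4KO replicate 1 was left out, 305 and 285 when MI4OE replicate 1 was, and 242 and 381 when both were. The groups did not overlap for 2 members, Smox and Azin1, both lower in MI4OE, against 5.48% of all rows in that direction and 7.38% in the other.

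**Figure D1:**
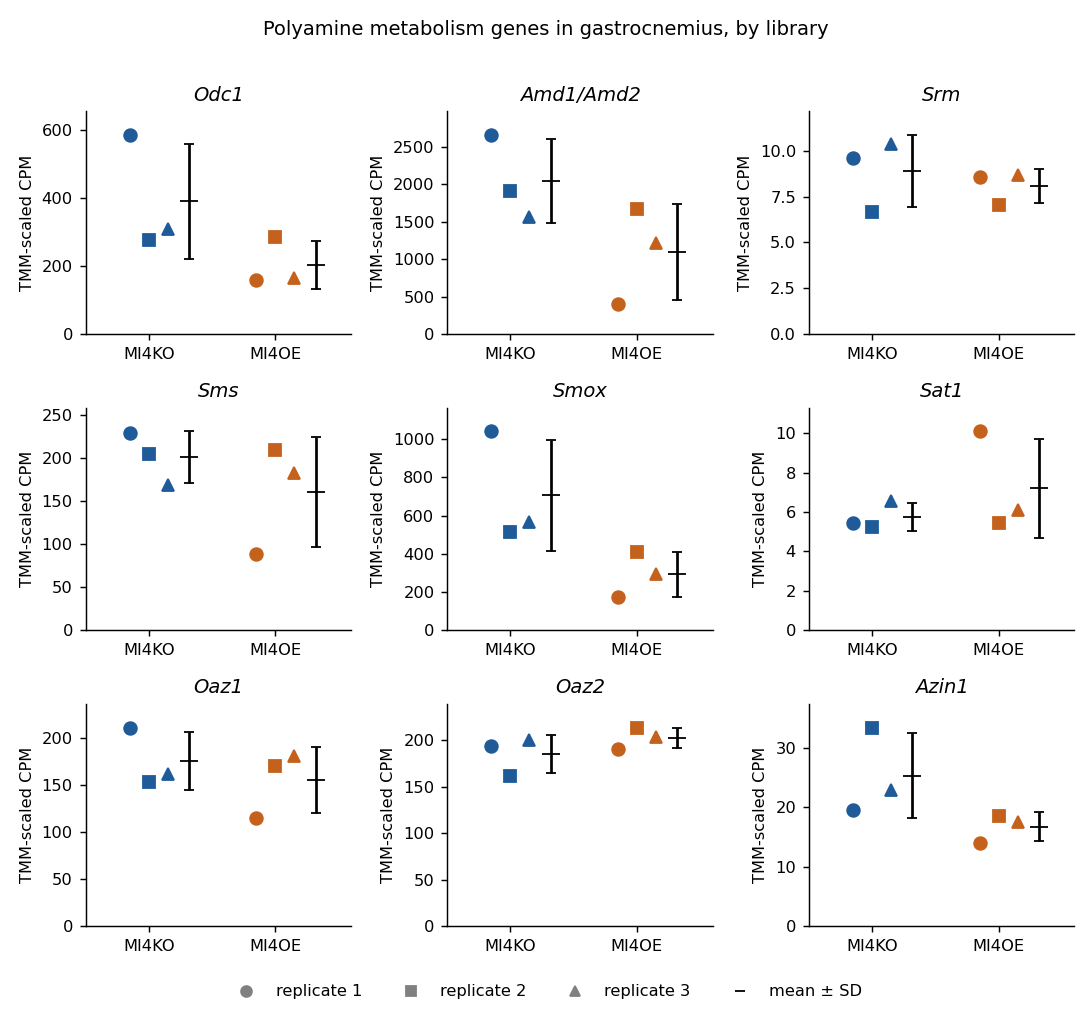
Level of each member in TMM-scaled CPM (vertical axes, starting at 0) in the 3 MI4KO (blue) and 3 MI4OE (orange) libraries, with symbols for the replicate number and black bars for mean ± SD. The groups are separate for Smox and Azin1, and MI4KO replicate 1 is the highest library in 5 of the panels.

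Among the genes for synthesis, Odc1, the entry step, was measured at 584, 276 and 310 CPM in MI4KO, against 159, 284 and 166 CPM in MI4OE. MI4KO replicate 1 was high, and MI4OE replicate 2 lay above MI4KO replicate 2, so the groups overlapped. The means were 389.8 ± 169 and 203 ± 70.5 CPM (SD, n = 3 each). The fitted log2 difference was -0.94 ± 0.36 (SE), a 1.92-fold lower level in MI4OE (unadjusted p = 0.0325, adjusted p = 0.606, edgeR). Without MI4KO replicate 1 the log2 difference was -0.53, and without MI4KO replicate 1 and MI4OE replicate 1 together it was -0.38. Odc1 no longer met the study's criterion when MI4KO replicate 1, MI4OE replicate 1 or MI4OE replicate 3 was left out.

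Amd1/Amd2 was measured at 2657, 1907 and 1566 CPM in MI4KO, against 405, 1672 and 1221 CPM in MI4OE. MI4OE replicate 1 stood far below the others, while MI4OE replicate 2 lay within the MI4KO range. The log2 difference was -0.89 ± 0.48 (SE, 95% interval -2.02 to 0.23, unadjusted p = 0.103, adjusted p = 0.730), so the decarboxylase transcripts did not differ beyond the spread between libraries. It was -1.33 (unadjusted p = 0.0295) when MI4OE replicate 2 was left out, and there, as with DESeq2 on all libraries (unadjusted p = 0.0496), it met the study's criterion. It was -0.50 without MI4OE replicate 1 and -0.27 without MI4KO replicate 1 and MI4OE replicate 1 together.

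Sms, the spermine synthase, was measured at 229, 204 and 169 CPM in MI4KO, against 88.4, 209 and 182 CPM in MI4OE. MI4OE replicate 1 lay well below the other 5, which reached from 169 to 229 CPM. The log2 difference of -0.32 (95% interval -1.07 to 0.42, adjusted p = 0.859) became -0.04 without that library and 0.07 with MI4KO replicate 1 left out too, but -0.57 when MI4OE replicate 2 was the one left out. Srm, the spermidine synthase, stayed between 6.66 and 10.4 CPM in all 6 libraries, with a log2 difference of -0.14 (95% interval -0.64 to 0.36, adjusted p = 0.915), which ranged from -0.32 without MI4KO replicate 2 to -0.024 without MI4KO replicate 3.

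The genes for breakdown differed from each other. Smox was measured at 1040 CPM in MI4KO replicate 1, 512 in replicate 2 and 565 in replicate 3. In MI4OE it was measured at 175, 407 and 294 CPM. Every MI4OE library was below every MI4KO library, with means of 705.8 ± 291 and 292 ± 116 CPM (SD, n = 3 each). The log2 difference was -1.27 ± 0.39 (SE, 95% interval -2.18 to -0.37), a 2.42-fold lower level of the spermine oxidase transcript in MI4OE (unadjusted p = 0.0120, adjusted p = 0.527). By p it ranked 289 of 12660. The log2 difference ranged from -1.59 to -0.89 when 1 library was left out and was -0.62 without MI4KO replicate 1 and MI4OE replicate 1 together, where Smox still met the study's criterion (unadjusted p = 0.0261).

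Sat1 was measured at 5.44, 5.23 and 6.55 CPM in MI4KO, against 10.1, 5.42 and 6.09 CPM in MI4OE. Apart from MI4OE replicate 1, in which it was highest, the libraries of both groups lay between 5.23 and 6.55 CPM. The log2 difference was 0.32 (95% interval -0.30 to 0.95, adjusted p = 0.845) and -0.04 without MI4KO replicate 1 and MI4OE replicate 1 together.

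**Figure D2:**
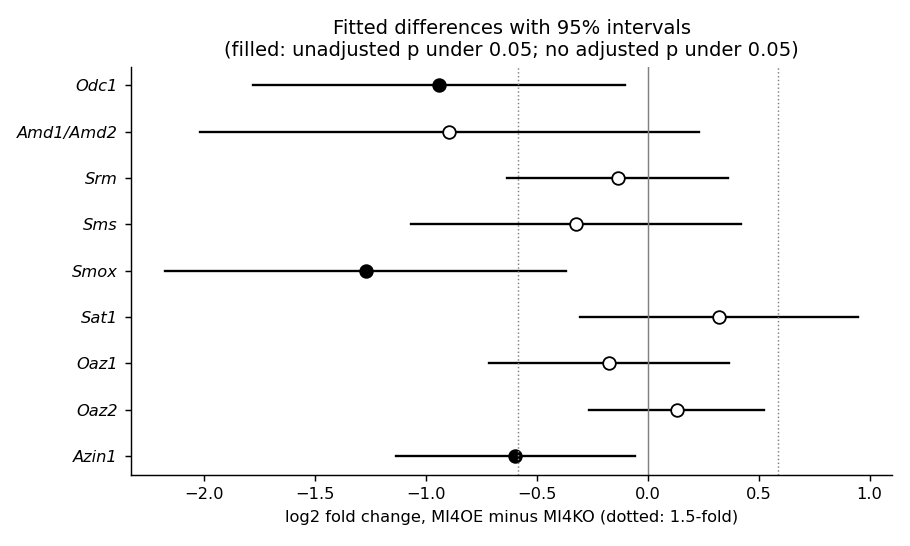
Fitted log2 fold change of each member (points; horizontal axis, MI4OE minus MI4KO) with its 95% interval (lines), filled where the unadjusted p is under 0.05. The intervals of Odc1, Smox and Azin1 lie below 0 and those of the other 6 rows include it.

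Among the genes for control, Azin1 was measured at 19.7, 33.4 and 23.0 CPM in MI4KO, against 14.0, 18.6 and 17.6 CPM in MI4OE. All MI4OE libraries were below all MI4KO libraries, although the nearest, 18.6 and 19.7 CPM, were close. The log2 difference was -0.60 ± 0.23 (SE, 95% interval -1.14 to -0.06), a 1.51-fold lower level in MI4OE that just met the criterion of 1.5-fold (unadjusted p = 0.0337, adjusted p = 0.611). It was -0.64 without MI4KO replicate 1 and MI4OE replicate 1 together and -0.36 without MI4KO replicate 2, its highest library. Azin1 no longer met the criterion when MI4KO replicate 2, MI4OE replicate 1 or MI4OE replicate 3 was left out. Unlike Odc1 and Smox, Azin1 was not highest in MI4KO replicate 1.

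The antizymes showed no difference beyond their spread. Oaz1 was measured at 211, 153 and 162 CPM in MI4KO, against 115, 170 and 181 CPM in MI4OE, with a log2 difference of -0.18 (95% interval -0.71 to 0.36, adjusted p = 0.898). It ranged from -0.31 without MI4OE replicate 3 to -0.0041 without MI4OE replicate 1. Without MI4KO replicate 1 and MI4OE replicate 1 together it was 0.15. Oaz2 was measured at 194, 161 and 200 CPM in MI4KO, against 191, 213 and 204 CPM in MI4OE, with a log2 difference of 0.13 (95% interval -0.26 to 0.52, adjusted p = 0.898) that shrank to 0.029 when MI4KO replicate 2 was left out.

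Ratios within a library do not depend on how libraries are scaled to each other. The ratio of Odc1 to the sum of both antizymes, in TPM, was 0.722, 0.447 and 0.447 in MI4KO and 0.284, 0.389 and 0.222 in MI4OE, with no overlap, and the mean log2 ratio was lower by -0.85 in MI4OE. The ratio of Smox to Sat1, the oxidase to the acetyltransferase, was 101, 52.1 and 45.7 in MI4KO and 9.42, 39.5 and 26.5 in MI4OE, also with no overlap, and differed by -1.54 on the log2 scale, or by -0.95 without MI4OE replicate 1. Both gave p = 0.1 in a two-sided exact permutation test, the smallest p that 3 against 3 libraries allow, and an adjusted p of 0.2 over the 4 ratios. The ratio of Azin1 to the antizymes differed by -0.51 (exact permutation p = 0.3, adjusted p = 0.4) and that of Sms to Srm by -0.29 (exact permutation p = 0.6, adjusted p = 0.6) on the log2 scale, and both overlapped between the groups. Without MI4KO replicate 2 the Azin1 ratio differed by -0.20, and without MI4KO replicate 1 by -0.78. The Sms to Srm ratio turned direction, at 0.13 without MI4OE replicate 1 and -0.63 without MI4OE replicate 2.

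5 of the 9 members (Amd1/Amd2, Odc1, Smox, Sms and Oaz1) had their highest level in MI4KO replicate 1 and their lowest in MI4OE replicate 1, a pattern shared by 7.63% of all genes tested. MI4OE replicate 1 also had the highest slow-fibre sum, and MI4KO replicate 1 the highest glucocorticoid and fasting sum. All 7 slow-fibre genes were higher in MI4OE, with summed levels of 23.5 to 110 CPM in MI4KO and 35.4 to 6265 CPM in MI4OE, and Myh7 and Myl2, which define slow fibres, were near 0 in MI4OE replicate 2 (0.28 and 0.07 CPM) as well as in MI4KO replicate 1 (0.21 and 0.08 CPM). All 11 glucocorticoid and fasting genes were lower in MI4OE when all 6 libraries were used. Their sums were 1029 to 2917 CPM in MI4KO and 1065 to 1178 CPM in MI4OE. This direction rested in part on MI4KO replicate 1, because the sums of MI4KO replicates 2 and 3 (1436 and 1029 CPM) lay on either side of MI4OE. Compared with those replicates, Foxo1 (19.7 and 20.1 CPM) was higher in every MI4OE library (22.9 to 26.1 CPM). Tsc22d3 (248 and 193 CPM) was lower in every MI4OE library (124 to 170 CPM), while Fbxo32 and Pdk4 overlapped. Within this list Fkbp5, a glucocorticoid receptor target, was at 148 CPM in MI4KO replicate 1 and at 17.8 to 37.3 CPM in the other 5 libraries. Per1 and Zbtb16 of the same list did not set MI4KO replicate 1 apart. They were at 84.1 and 48.8 CPM there and at 94.8 and 49.5 CPM in MI4KO replicate 2. All 6 adipocyte genes were lower in MI4OE (56.2 to 568 CPM in MI4KO, 6.25 to 34.8 in MI4OE), while all 4 endothelial genes (71.4 to 117 CPM and 135 to 275 CPM) and all 5 fibroblast genes (169 to 265 CPM and 303 to 411 CPM) were higher. The 6 muscle fibre genes summed to 200823 to 269469 CPM in MI4KO and 146241 to 212520 in MI4OE, with 5 genes lower in MI4OE and 1 higher. The higher gene was Myh1, a fast myosin, at 566, 809.7 and 3206 CPM in MI4KO and 10167, 1305 and 5964 CPM in MI4OE. 4 of the 5 denervation genes tested were higher in MI4OE (38.9 to 49.6 CPM and 50.5 to 54.3 CPM), and 4 of the 5 macrophage genes found were lower (22.1 to 42.6 CPM and 16.0 to 39.0 CPM). The 2 hepatocyte genes tested were lower in MI4OE, with sums over the list of 1.53 to 44.5 CPM in MI4KO and 0.088 to 3.20 CPM in MI4OE. The part of these fibre, hormone and cell type signals in the differences of the members was not tested.

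**Figure D3:**
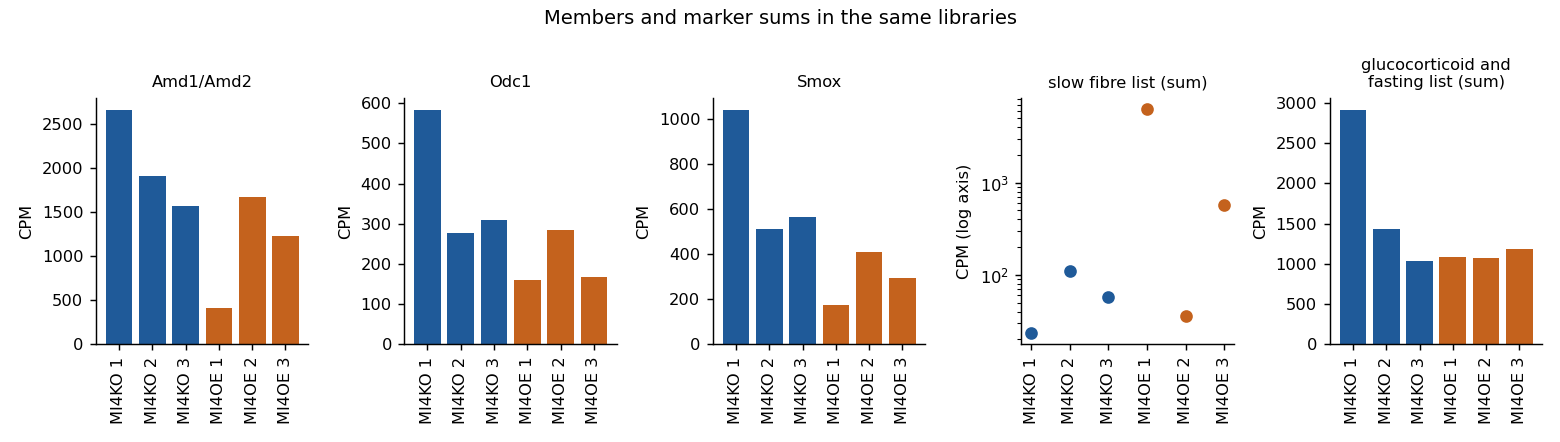
CPM in each library of Amd1/Amd2, Odc1 and Smox (bars from 0), of the summed slow-fibre genes (points, log axis) and of the summed glucocorticoid and fasting genes (bars from 0), with MI4KO in blue and MI4OE in orange. MI4KO replicate 1 has the highest bars for the members and for the glucocorticoid and fasting sum, and MI4OE replicate 1 the lowest bars for the members and the highest slow-fibre point.

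**Figure D4:**
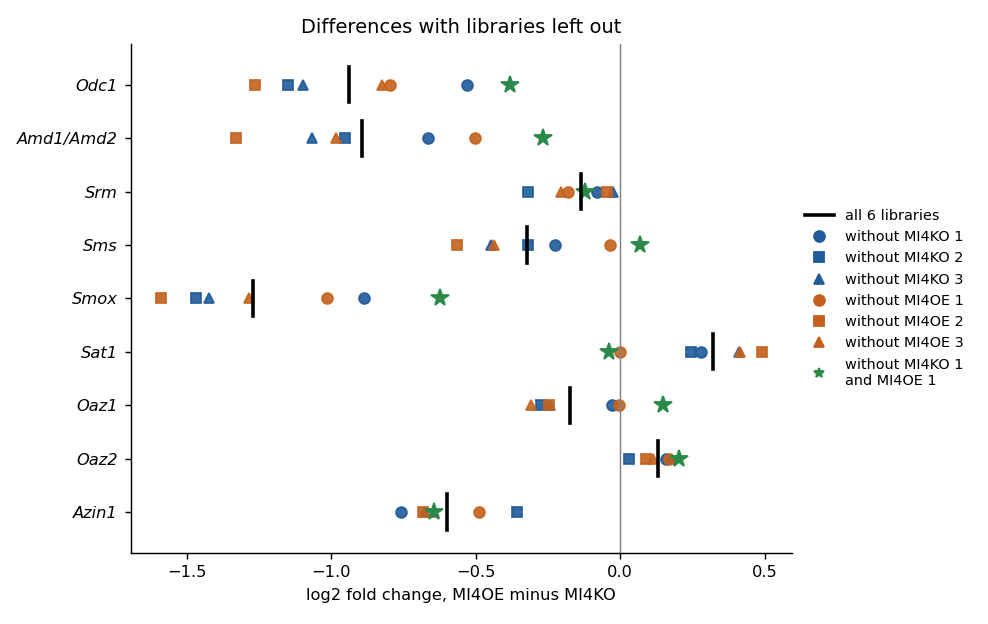
Log2 fold change of each member (horizontal axis, MI4OE minus MI4KO) with all 6 libraries (black line), with each library left out in turn (symbols) and without MI4KO replicate 1 and MI4OE replicate 1 together (star). Smox, Odc1, Amd1/Amd2 and Azin1 stay below 0 throughout, and Sms, Sat1 and Oaz1 cross it.

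Other genes of the pathway were also compared, from a list of 29 for the supply of S-adenosylmethionine, ornithine and agmatine, further breakdown, a further antizyme (Oaz3), hypusine formation and transport. 25 were expressed well enough to test, of which 15 were lower and 10 higher in MI4OE, with a median log2 difference of -0.04. None passed at an adjusted p under 0.05, and 1 of the 25 met the study's criterion, as lower, against 2.28% of all rows in that direction. That gene was Slc22a3, an organic cation transporter that also carries polyamines, at 3.48, 1.03 and 2.65 CPM in MI4KO and 0.44, 0.49 and 0.57 CPM in MI4OE. Its log2 difference was -2.24 ± 0.49 (SE, unadjusted p = 0.00222, adjusted p = 0.433), and DESeq2 and edgeR's exact test gave adjusted p values of 0.0116 and 0.0139. On log2(TPM + 1) in limma the difference was -0.69 (adjusted p = 0.584), and over all alternatives the adjusted p ranged from 0.0116 to 0.912. The groups did not overlap for 5 of the 25, 4 lower and 1 higher in MI4OE, against 12.9% of all rows in either direction. Mat2a, which makes the S-adenosylmethionine that Amd1 and Amd2 use, was at 131, 117 and 112 CPM in MI4KO and 67.2, 97.8 and 98.0 CPM in MI4OE, without overlap (log2 difference -0.45, adjusted p = 0.663). Mat2b, the regulatory partner of Mat2a, lay slightly higher in MI4OE without overlap, at 36.9 to 38.2 CPM in MI4KO and 39.8 to 41.0 CPM in MI4OE (log2 difference 0.11, adjusted p = 0.879). Ahcy, which clears S-adenosylhomocysteine, and Oat, ornithine aminotransferase, were lower without overlap, with log2 differences of -0.39 (adjusted p = 0.722) and -0.23 (adjusted p = 0.844). Without MI4OE replicate 1 the log2 differences of Mat2a, Ahcy and Oat were -0.30, -0.27 and -0.08, and without MI4KO replicate 1 as well they were -0.23, -0.11 and -0.06. All 4 hypusine genes were tested, with 3 lower and 1 higher, and Eif5a, the protein that carries the hypusine made from spermidine, was at 334 to 480.4 CPM in MI4KO and 329 to 346 CPM in MI4OE.

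The transcripts of 3 members could be told apart in the deposited files, and their shares are given without a test. Smox had 9 transcripts, and NM_145533 received 71.3, 80.0 and 81.1% of its counts in MI4KO and 70.5, 81.5 and 75.7% in MI4OE. Scaled for library size with the same TMM factors as the genes, this transcript was at 741 CPM, 409.5 CPM and 458 CPM in MI4KO, and at 124 CPM, 332 CPM and 222 CPM in MI4OE, and every MI4OE library was below every MI4KO library. NM_001177833 took a mean of 11.6% in MI4KO and 13.6% in MI4OE. For Azin1, NM_018745 received 79.3 to 89.6% in MI4KO and 80.9 to 100% in MI4OE. Sat1 rested on few reads, and its NM_001291865 transcript received 0, 23.9 and 22.4% in MI4KO and 37.1, 18.9 and 45.6% in MI4OE, from 0 to 76.1 counts.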

How the data were processed

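RNA-seq libraries were made with Kapa Stranded mRNA and read as single 50-base reads. Per the labels and methods, the authors used bcl2fastq 2.17, Bowtie2 2.1.0 and RSEM 1.2.15 with UCSC transcripts, and deposited expected counts per gene and per transcript (estimated counts that divide ambiguous reads) and TPM. The genome build is not given in the sources used here. The authors' tables of signed fold changes, p-values, FDR and scaled CPM were not used. Expected counts were rounded, with Amd1 and Amd2 summed first, filtered with filterByExpr (minimum count 10, minimum total 15), scaled by TMM and tested with edgeR 4.0.16 (quasi-likelihood, R 4.3.3) across all 12660 rows, MI4OE minus MI4KO, with Benjamini-Hochberg adjustment at 0.05. The study's criterion was 1.5-fold and unadjusted p under 0.05. It was applied here to the p-values of this fit, so the counts at it are not the study's own. Alternatives used DESeq2 1.42.0, limma 3.58.1 and other scalings, filters and pseudocounts. The scripts were tested on simulated data. 3 counts in a library corresponded to 0.101 to 0.148 CPM, which covers counting error only.

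Named genes were the 10 members, Irf4 as a check, and genes of the pathway list at a mean CPM of at least 1 with an unadjusted p under 0.05 or groups that did not overlap. Eif5a was named in addition, after its values were seen, and so were marker genes. Members and lists were chosen with earlier results of these data known. The labels give the replicates as separate samples of mice and do not state that each came from its own animal, so p-values measure the spread between these samples. Sequences were compared with Biopython (GENCODE M21 for transcripts, RefSeq GRCm38.p6 for promoters).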

Additional observations from a re-analysis of the deposited data

Results flagged for a closer look

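Amd1 alone received 349 expected counts in MI4KO replicate 3 (349.39) and in MI4OE replicate 3 (349.74), which was 0.749% and 1.26% of the counts of Amd1 and Amd2 together. In the other 4 libraries it received 0 to 0.15 counts, where Amd2 received 8238 to 64906. The value stood out as a signal in a row that is not used on its own in the comparison. The 2 libraries belong to different groups, and adding the rows changes the Amd1/Amd2 level by no more than these shares.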

How the results depend on the processing

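No member had an adjusted p under 0.05 under any alternative, and the smallest for Smox was 0.0785. Smox, Odc1, Amd1/Amd2, Azin1, Srm and Oaz2 kept their direction in all 17 alternatives. No paired analysis was possible because replicates were numbered by accession and no label links a MI4KO sample to a MI4OE sample. Leaving out 1 library at a time, the log2 difference ranged from -1.33 to -0.50 for Amd1/Amd2, -1.26 to -0.53 for Odc1, -1.59 to -0.89 for Smox, -0.76 to -0.36 for Azin1 and -0.00017 (without MI4OE replicate 1) to 0.49 for Sat1, and the ratio of Sms to Srm from -0.63 to 0.13 (without MI4OE replicate 1). The number of members at the study's criterion, 3 with all libraries, ranged from 1 to 4. It was 1, Smox, without MI4OE replicate 1 or without MI4OE replicate 3. Smox met the criterion in every alternative. Odc1 lost it without MI4KO replicate 1 as well, Azin1 lost it without MI4KO replicate 2, with total counts and with limma, and Amd1/Amd2 gained it without MI4OE replicate 2 and with DESeq2. The rows with an adjusted p under 0.05, 3 in all, ranged from 1 (without MI4KO replicate 1) to 4, and the 841 rows at the criterion from 590 to 1315 (without MI4OE replicate 2). DESeq2 gave 111 rows and edgeR's exact test 108 with an adjusted p under 0.05, and limma on log2(TPM + 1) gave 468 at the criterion. Total counts without TMM moved the median of all genes to 0.09. Without MI4KO replicate 1 and MI4OE replicate 1 together, a setting chosen after seeing the data, Sms (0.069), Sat1 (-0.039) and Oaz1 (0.15) turned direction, and Smox and Azin1 met the criterion. Where a value turned or a call was lost, the cause was not tested. With 3 libraries a group, 1 library could decide whether a member met the criterion.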
